A study of Mus musculus with 9 samples.

Results

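The genes described here belong to the Keap1-Nrf2 pathway or code for enzymes that process foreign compounds, in cultured mouse NPK prostate cancer cells. Of 10 genes named, 9 were analysed among the 12842 genes with values. Of these 9, 7 were named for their function (Nfe2l2, Keap1, Gclc, Gclm, Gsr, Txnrd1 and Srxn1). The other 2, Ephx1 and Ces2g, were chosen by their measured rise with an MCTP compound, so their values are a description and carry no test in any comparison. Nqo1 was also named and was not analysed here. All 9 passed the filter on low values.

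Nrf2, the product of Nfe2l2, is a transcription factor that is held in the cytoplasm and passed to degradation by Keap1 as long as the cell is not under oxidative or electrophilic stress. When cysteines of Keap1 are modified, Nrf2 accumulates, pairs with small Maf proteins and binds antioxidant response elements near genes for glutathione synthesis, thioredoxin reduction, iron storage and detoxification. Xenobiotic enzymes such as epoxide hydrolases, carboxylesterases and glutathione transferases convert foreign or reactive compounds into forms that can be excreted, and several of them are also controlled by other receptors.

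NPK cells are a line isolated from lung metastases of NPK mice, in which an inducible Cre under the Nkx3.1 promoter (Nkx3.1 CreERT2, heterozygous) switches on a YFP lineage marker (R26R YFP). The other alleles of these mice are not described here. The line was grown in RPMI medium with serum, and all 9 libraries share this background. The 3 groups, with 3 libraries each, were as follows. Control cells form the first, cells carrying an shRNA against Nsd2 (shNsd2) the second, and cells given an MCTP compound the last, MCTP-39 being a putative inhibitor of NSD2 used in the study. The dose and duration of the treatment of these cells were not found, and the labels name neither the shRNA used nor a control shRNA in the control cells. The MCTP labels carry the compound numbers 39, 40 and 41 in libraries 1, 2 and 3, and the source label of shNsd2 libraries 1, 2 and 3 reads Nsd2, Nsd3 and Nsd4. If the compound numbers are literal, each compound has 1 library and the MCTP group is not a set of replicates. Nothing states that the libraries of a group came from separate cultures, so p-values measure the spread between these libraries, which may be technical.

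Every value given per library is the deposited log2 expression of a gene. No counts were given, and sequencing depth is therefore not known. Whether values are scaled to gene length is not stated for these libraries. The order of values between genes is therefore not read as an order of transcript numbers. Near the lower end of the scale values are drawn together, with a median within-group standard deviation of 0.030 among the lowest 10% of genes and 0.075 among the highest, and differences there are understated. No library shared a value at any gene with a replicate of its group. MCTP replicate 2 lay farthest from its group mean (mean absolute deviation 0.104, against 0.040 and 0.081 for MCTP replicates 1 and 3).

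The silenced gene was examined first. Nsd2, listed under its older symbol Whsc1 (ENSMUSG00000057406.8), was at 12.48, 12.43 and 12.42 in the control libraries, at 11.56, 11.61 and 11.68 in the shNsd2 libraries and at 12.15, 12.21 and 12.07 in the MCTP libraries. Every shNsd2 library lay below every MCTP library, and every MCTP library below every control library. The log2 difference of shNsd2 from control was -0.83 (standard error 0.041, adjusted p = 2.26e-06 from limma), which is 0.563 of the control level on a linear scale (95% interval 0.528 to 0.600). With MCTP the difference was -0.30 (standard error 0.054, adjusted p = 0.00562 from limma), and correcting the libraries for transcript GC content took it to -0.12 (adjusted p = 0.0775 from limma). In bulk samples fewer cells of a type and less RNA per cell cannot be told apart.

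The prostate label was checked against marker genes. The control libraries expressed the luminal keratins Krt8 (16.28) and Krt18 (15.38) and the prostate homeobox gene Hoxb13 (10.28), together with the mesenchymal gene Vim (17.21). The epithelial adhesion gene Epcam was near the floor of the scale (3.55 in control cells). Of 5 immune markers 1 was analysed, Cd68, at 6.50, 6.51 and 6.60 in control, 7.20, 7.15 and 7.44 in MCTP and 6.78, 6.78 and 6.72 in shNsd2 libraries. Of 4 endothelial markers 1 was analysed (Cdh5, 3.50 in control), as was 1 of 5 markers of lung epithelium (Foxj1, 2.66 in control), both below the filter, and none of 4 hepatocyte markers. Of 5 fibroblast markers 3 were analysed, and Col1a1, with the highest values, was at 8.20 in control, 7.87 in MCTP and 7.91 in shNsd2 cells. Col1a1 fell with MCTP (-0.33, adjusted p = 0.0105 from limma) and with shNsd2 (-0.30, adjusted p = 0.00111 from limma). Pdgfra (3.99 in control) went the other way, passing as higher with shNsd2 (0.13, adjusted p = 0.00161 from limma). With MCTP it gave 0.054 (adjusted p = 0.0955 from limma), and Dcn (2.33 in control) was below the filter. Cd68 rose with MCTP (0.73, adjusted p = 6.88e-04 from limma) and with shNsd2 (0.23, adjusted p = 0.00227 from limma), as did the basal keratin Krt14 (1.19, adjusted p = 2.74e-04, and 0.78, adjusted p = 2.22e-05, from limma). Krt19 rose with MCTP (0.37, adjusted p = 0.0392 from limma) and fell with shNsd2 (-0.34, adjusted p = 0.00257 from limma). Of 5 mesenchymal markers Vim rose with MCTP (0.32, adjusted p = 0.0266 from limma), Zeb1 fell (-0.23, adjusted p = 0.0407 from limma) and 3 did not pass (median -0.045), where 18.0% of all genes rose and 17.2% fell. The MCTP calls of Krt19, Vim and Zeb1 were lost without any 1 of the control libraries (0.31 to 0.41, 0.29 to 0.34 and -0.25 to -0.22), without MCTP replicate 1 (0.35, 0.31 and -0.21) and without MCTP replicate 3 (0.27, 0.26 and -0.18). With shNsd2 all 5 fell, where 24.8% of all genes did, and 3 fell without control replicate 2 or any 1 of the shNsd2 libraries. The shNsd2 call of Vim (-0.16) was lost without any 1 library except control replicate 1 (-0.18 to -0.12). The part of these markers in the other results was not tested.

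Cells treated with MCTP had more mRNA of both subunits of the enzyme that starts glutathione synthesis (Gclc and Gclm) and of the thioredoxin-linked enzymes Txnrd1 and Srxn1, and less mRNA of Nfe2l2 itself. Of the 7 genes named for their function, 4 rose, 1 fell and 2 did not pass the test, where 35.2% of the 12216 genes tested passed it in either direction (18.0% higher and 17.2% lower). For 4 of the 7 every MCTP library lay above every control library, and for 1 below, as for 50.6% of all genes (25.8% higher and 24.8% lower). The median log2 difference of the 7 genes was 0.26, against -0.0062 over all genes tested. In shNsd2 cells 2 of the 7 rose (Gclm and Txnrd1), 1 fell (Nfe2l2) and 4 did not pass, where 47.8% of 12205 genes passed (23.1% higher and 24.8% lower). The number of the 7 that passed was 6 with the GC correction (6686 of 11931 over all genes) and 5 without control replicate 1 (6006 of 12190). Every shNsd2 library lay above every control library for 3 of the 7, Gclm, Txnrd1 and Gsr, and below for 1, as for 57.2% of all genes (28.1% higher and 29.1% lower). The median difference of the 7 was 0.072, against 0.0020 over all genes. Both comparisons use the same control libraries, so their results are set side by side and not counted as separate evidence. With shares this large, passing the test does not set a gene apart from the rest of the table.

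**Figure D1:**
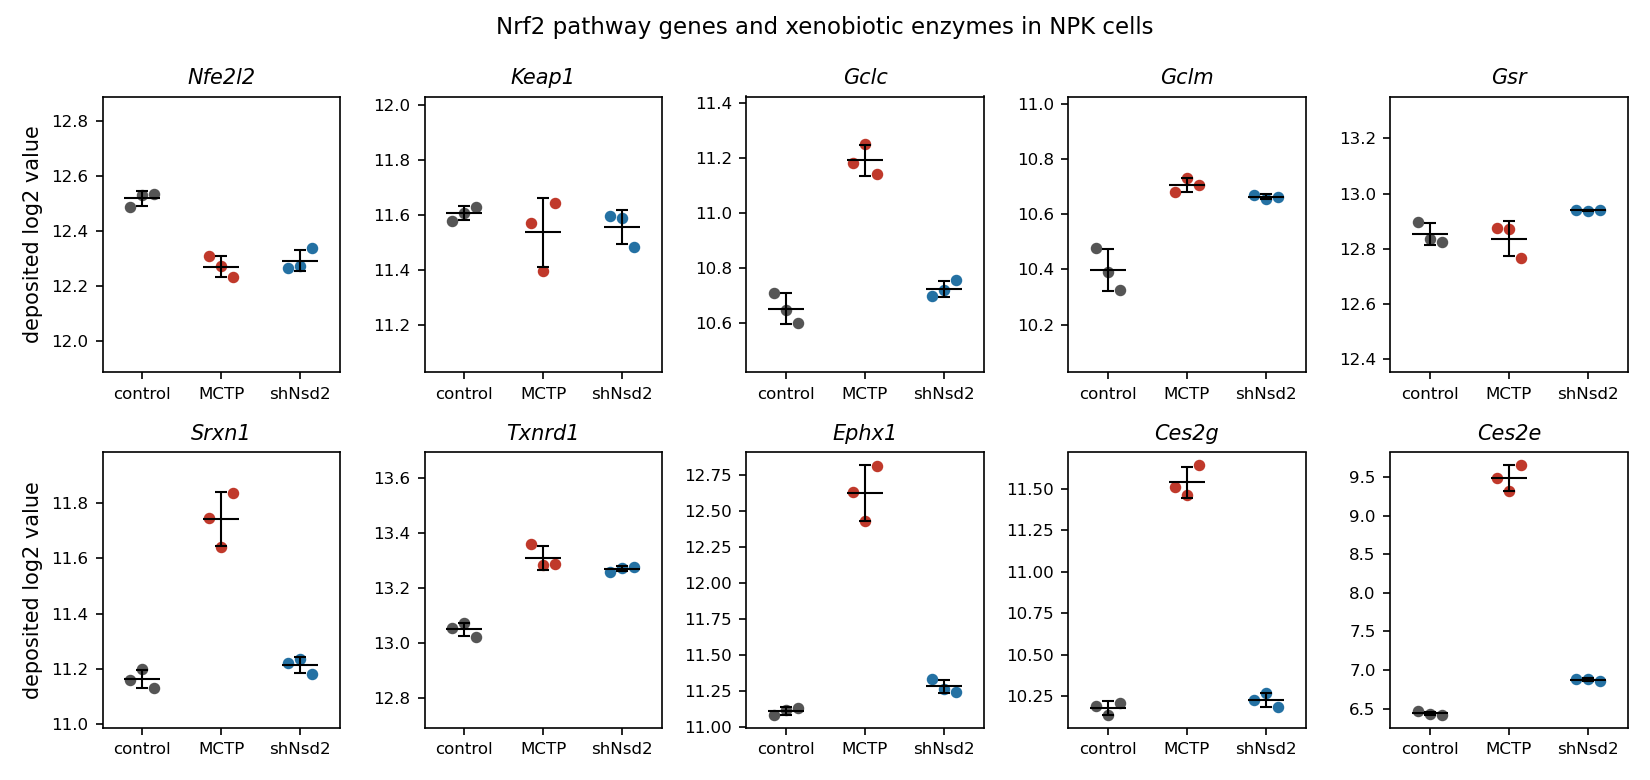
Deposited log2 expression (vertical axes, each spanning at least 1 log2 unit) of the 9 analysed genes and of Ces2e in each control (grey), MCTP (red) and shNsd2 (blue) library, with the group mean and standard deviation over 3 libraries as bars. MCTP libraries lie above control libraries for Gclc, Gclm, Srxn1, Txnrd1, Ephx1, Ces2g and Ces2e and below them for Nfe2l2, and shNsd2 libraries lie near the control level for Gclc, Srxn1 and Ces2g.

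Nfe2l2 (ENSMUSG00000015839.6), which codes for Nrf2, was at 12.49, 12.53 and 12.54 in control, 12.31, 12.27 and 12.23 in MCTP and 12.27, 12.27 and 12.34 in shNsd2 libraries. All MCTP and shNsd2 libraries lay below all control libraries, while the MCTP and shNsd2 libraries overlapped each other. The log2 difference from control was -0.25 with MCTP (standard error 0.047, adjusted p = 0.00696 from limma) and -0.23 with shNsd2 (standard error 0.035, adjusted p = 8.93e-04 from limma). Between shNsd2 and MCTP the difference was 0.022 (95% interval -0.084 to 0.13, adjusted p = 0.714 from limma).

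Keap1 (ENSMUSG00000003308.8), the adaptor that targets Nrf2 for degradation, was at 11.58, 11.61 and 11.63 in control, 11.57, 11.40 and 11.64 in MCTP and 11.60, 11.59 and 11.49 in shNsd2 libraries. The groups overlapped, and MCTP replicate 2 gave the lowest value. The differences from control were -0.069 with MCTP (95% interval -0.23 to 0.090, adjusted p = 0.447 from limma) and -0.050 with shNsd2 (95% interval -0.14 to 0.040, adjusted p = 0.329 from limma). After the GC correction both passed the test as lower, at -0.17 (adjusted p = 0.00648 from limma) and -0.11 (adjusted p = 0.00721 from limma). Without MCTP replicate 2 the MCTP difference was 0.0011.

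Differences followed GC content across genes. The Spearman correlation of the difference with the GC content of the longest transcript was 0.47 for MCTP and 0.25 for shNsd2 against control, over 11940 and 11930 genes, and -0.245 for shNsd2 against MCTP, over 11940. These genes are not independent replicates. The part of GC content in single genes was not tested beyond this correction, which takes out true changes along with any that track base composition.

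Glutamate-cysteine ligase, the rate-limiting enzyme of glutathione synthesis, is made of a catalytic subunit (Gclc) and a modifier subunit (Gclm). Gclc (ENSMUSG00000032350.8) was at 10.71, 10.65 and 10.60 in control, 11.18, 11.25 and 11.14 in MCTP and 10.70, 10.72 and 10.75 in shNsd2 libraries. The MCTP libraries stood above all others, while shNsd2 and control libraries overlapped. The rise with MCTP was 0.54 (standard error 0.054, adjusted p = 5.18e-04 from limma), a 1.45-fold higher level on a linear scale (95% interval 1.33 to 1.58). With shNsd2 the difference was 0.072 (95% interval -0.018 to 0.16, adjusted p = 0.168 from limma). It passed the test after the GC correction (0.099, adjusted p = 0.0221 from limma) and without control replicate 1 (0.10, adjusted p = 0.0482 from limma).

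Gclm (ENSMUSG00000028124.7) was at 10.48, 10.39 and 10.33 in control, 10.68, 10.73 and 10.71 in MCTP and 10.67, 10.66 and 10.66 in shNsd2 libraries. It was above every control library in both the MCTP and the shNsd2 group. The log2 difference was 0.31 with MCTP (standard error 0.056, adjusted p = 0.00583 from limma) and 0.27 with shNsd2 (standard error 0.044, adjusted p = 0.00123 from limma). The GC correction raised the MCTP value to 0.48 (adjusted p = 3.63e-04 from limma), more than 1.5 times the uncorrected one. Between shNsd2 and MCTP, Gclc was lower in shNsd2 cells by a log2 difference of -0.47 (standard error 0.048, adjusted p = 3.73e-04 from limma), and Gclm gave -0.042 (95% interval -0.14 to 0.056, adjusted p = 0.444 from limma), or -0.15 after the GC correction (adjusted p = 0.0572 from limma). The contrast between the subunits was not itself tested.

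Gsr (ENSMUSG00000031584.9), the reductase that returns oxidized glutathione to its reduced form, was at 12.90, 12.84 and 12.82 in control, 12.88, 12.87 and 12.76 in MCTP and 12.94, 12.94 and 12.94 in shNsd2 libraries. MCTP and control libraries overlapped, and the shNsd2 libraries lay narrowly above all others. The differences from control were -0.016 with MCTP (95% interval -0.14 to 0.11, adjusted p = 0.825 from limma) and 0.086 with shNsd2 (95% interval 0.0094 to 0.16, adjusted p = 0.0632 from limma). The shNsd2 value passed the test with libraries centred on their medians (adjusted p = 0.0389 from limma), after the GC correction (adjusted p = 0.0316 from limma) and without control replicate 1 (adjusted p = 0.0172 from limma). Directly, shNsd2 differed from MCTP by 0.10 (95% interval -0.0095 to 0.21, adjusted p = 0.121 from limma), and passed as higher without MCTP replicate 2 (0.12, adjusted p = 0.0366 from limma) and after the GC correction (0.13, adjusted p = 0.0335 from limma).

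Txnrd1 (ENSMUSG00000020250.8), the cytosolic thioredoxin reductase, was at 13.05, 13.07 and 13.02 in control, 13.36, 13.28 and 13.28 in MCTP and 13.26, 13.27 and 13.28 in shNsd2 libraries. Both treated groups were above all control libraries, and the shNsd2 libraries lay just below the MCTP libraries. The rise was 0.26 with MCTP (standard error 0.049, adjusted p = 0.00661 from limma) and 0.22 with shNsd2 (standard error 0.032, adjusted p = 6.09e-04 from limma). The direct difference of shNsd2 from MCTP was -0.040 (95% interval -0.14 to 0.064, adjusted p = 0.496 from limma).

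Srxn1 (ENSMUSG00000032802.7) codes for sulfiredoxin, which repairs overoxidized peroxiredoxins. It was at 11.16, 11.20 and 11.13 in control, 11.75, 11.64 and 11.84 in MCTP and 11.22, 11.23 and 11.18 in shNsd2 libraries. MCTP libraries were above all others, and shNsd2 libraries overlapped the control libraries. The rise with MCTP was 0.58 (standard error 0.061, adjusted p = 5.97e-04 from limma) with a 95% interval of 0.44 to 0.72. With shNsd2 the difference was 0.050 (95% interval -0.030 to 0.13, adjusted p = 0.275 from limma), and directly against MCTP -0.53 (standard error 0.059, adjusted p = 5.17e-04 from limma).

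Directly compared, shNsd2 cells had less Gclc and Srxn1 mRNA than MCTP-treated cells, so 2 of the 7 genes passed the test as lower, 0 as higher and 5 did not pass. Over all genes 43.2% of 12217 passed (20.6% higher and 22.6% lower). At an unadjusted p under 0.05 from limma 0 of the 7 were higher as well, while 1, Gsr, passed as higher without MCTP replicate 2 and after the GC correction. Every shNsd2 library lay above every MCTP library for 1 of the 7 (Gsr) and below for 4, as for 55.0% of all genes (26.5% higher and 28.5% lower). The median of the 7 genes was -0.040, against 0.0072 over all genes. The genes that rose in both treated groups against control, Gclm and Txnrd1, did not pass the test between those groups, whereas Gclc and Srxn1 stood high only in the MCTP libraries among these 9.

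Ephx1 (ENSMUSG00000038776.7), the microsomal epoxide hydrolase, was at 11.08, 11.12 and 11.13 in control, 12.63, 12.43 and 12.81 in MCTP and 11.33, 11.27 and 11.25 in shNsd2 libraries. The MCTP libraries were far above the rest, and the shNsd2 libraries sat slightly above the control libraries. The differences were 1.51 with MCTP, 0.17 with shNsd2 and -1.34 for shNsd2 against MCTP. On a linear scale the MCTP level was 2.85 times and the shNsd2 level 1.12 times that of control.

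Ces2g (ENSMUSG00000031877.8), a carboxylesterase of family 2, was at 10.19, 10.13 and 10.21 in control, 11.51, 11.46 and 11.64 in MCTP and 10.23, 10.27 and 10.19 in shNsd2 libraries. Again the MCTP libraries stood apart, while shNsd2 and control libraries overlapped. The differences were 1.36 with MCTP (2.57 times the control level), 0.049 with shNsd2 and -1.31 for shNsd2 against MCTP. Because the choice of Ephx1 and Ces2g used the MCTP libraries and the control libraries, none of these differences was tested.

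The rule behind that choice gave no threshold. Ranked by the difference of MCTP from control among 12216 genes, Ephx1 came at rank 9 (1.51) and Ces2g at rank 14 (1.36). The neighbours just above and below were Ddit4l (1.56) and Ptp4a3 (1.499) for Ephx1, and Tnxb (1.38) and Notch3 (1.35) for Ces2g. Srxn1 was at rank 225, Gclc at 276, Gclm at 1003 and Txnrd1 at 1387.

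The genes whose values over the 9 libraries were most like those of Ephx1 were Sytl1 (Pearson r 0.9998), Cgref1 (0.998) and Syn1 (0.998). For Ces2g they were Fgd3 (0.998), Acta2 (0.998) and 6530418L21Rik (0.998). These correlations describe a separation of the MCTP libraries from the others, which all 9 points share, and have no p. Among the other genes named here, Srxn1 (0.996 with Ephx1 and 0.989 with Ces2g) and Gclc (0.959 and 0.971) followed the same pattern, while Gclm (0.642 and 0.602) and Txnrd1 (0.674 and 0.622) did so less.

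The gene with the largest rise of all 12216 genes with MCTP lies near Ces2g. In the reference annotation (GENCODE M21, GRCm38), Ces2e spans chr8:104926260-104934672 and Ces2g chr8:104961718-104969537, both on the + strand, with Ces2f between them. Ces2e (ENSMUSG00000031886.7) was at 6.46, 6.43 and 6.41 in control, 9.49, 9.32 and 9.66 in MCTP and 6.89, 6.89 and 6.85 in shNsd2 libraries. The 3 groups did not overlap, with the control libraries lowest, the shNsd2 libraries in between and the MCTP libraries highest. The rise was 3.05 with MCTP (standard error 0.085, adjusted p = 7.18e-06 from limma), or 8.29-fold on a linear scale (95% interval 7.24 to 9.50), and 0.44 with shNsd2 (standard error 0.035, adjusted p = 2.65e-05 from limma). Directly, shNsd2 differed from MCTP by -2.61 (standard error 0.084, adjusted p = 9.56e-06 from limma). Ces2f was near the floor, at 2.94, 2.93 and 2.93 in control, 3.14, 3.25 and 3.22 in MCTP and 2.94, 2.94 and 2.96 in shNsd2 libraries, below the filter and not tested.

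Reads could in principle be shared between these paralogs, since the way multiply mapping reads were counted is not given in the sources used here. The longest transcripts of Ces2e and Ces2g were identical at 72.2% of 2631 aligned bases, and 9 of the 2625 stretches of 75 bases, the read length in the labels, in Ces2e also occurred in Ces2g. For Nfe2l2, Keap1, Gclc, Gclm, Gsr, Txnrd1 and Srxn1 no such stretch occurred in another gene, and for Ephx1 7 of 1667 did, in Gm36961. Of the genes of the lists described next, Gsta1 (86.3%), Ftl1 (69.9%), Gstp2 (68.2%), Ugt1a7c (69.1%), Gstp1 (57.7%) and Ugt1a6a (36.9%) share many stretches with other genes, and their values are uncertain for that reason. Gstm1 (14.8%) and Abcb1b (12.6%) share fewer. Not every gene of the lists was checked, Gpx1 and Mgst1 being among those left out.

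Further genes of the pathway were followed in 6 lists with 125 genes, of which 92 were analysed. Counts with a library left out are read against those over all genes, which moved as well. With MCTP 4305 genes passed, 7372 without MCTP replicate 2 and 2029 to 2830 without any other library, and for shNsd2 against MCTP 5276, 7756 and 3361 to 4637. Among 20 other Nrf2 targets, 12 rose with MCTP, 3 fell and 5 did not pass (median 0.32), where 18.0% of all genes rose and 17.2% fell, and of the 3 falls 1 was left without MCTP replicate 1, control replicate 1 or control replicate 2. The heme oxygenase Hmox1 rose by 0.70 (adjusted p = 0.00134 from limma), the transferase Gsta4, which conjugates lipid peroxidation products, by 1.02 (adjusted p = 6.81e-05 from limma) and the ferritin heavy chain Fth1 by 0.49 (adjusted p = 0.00897 from limma). The ferritin light chain Ftl1 (0.61), the oxidative stress gene Osgin1 (0.49), biliverdin reductase Blvrb (0.49), Gstm1 (0.44) and Ptgr1 (0.34) also rose, and Aox1 gave 0.19 without passing (0.26 after the GC correction, adjusted p = 0.00925 from limma). The median over all genes tested was -0.0062.

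Slc7a11, the cystine transporter that supplies cysteine for glutathione, went the other way. It was at 11.26, 11.26 and 11.28 in control, 9.88, 10.40 and 9.83 in MCTP and 10.84, 10.82 and 11.11 in shNsd2 libraries. All MCTP libraries were below all shNsd2 libraries, and these were below all control libraries. Its difference was -1.23 with MCTP (standard error 0.14, adjusted p = 7.84e-04 from limma) and -0.34 with shNsd2 (standard error 0.069, adjusted p = 0.00359 from limma; 0.0767 with all 9 libraries in one fit). For shNsd2 against MCTP the value was 0.89 (standard error 0.15, adjusted p = 0.00350 from limma). In MCTP-treated cells more mRNA of both ligase subunits went with less mRNA of this transporter.

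In shNsd2 cells the same 20 targets were divided, with 6 higher, 6 lower and 8 not passing (median 0.043, against 0.0020 over all genes, of which 23.1% rose and 24.8% fell). Osgin1 (0.51, adjusted p = 1.69e-04 from limma), Fth1 (0.40), Hmox1 (0.35), Ftl1 (0.25) and Gsta4 (0.25) rose. Aox1 (-0.35), Ptgr1 (-0.26) and Gstm1 (-0.16) fell together with Slc7a11, and Blvrb gave -0.068 without passing. The Ftl1 call was lost with all 9 libraries in one fit (adjusted p = 0.0892 from limma), as was that of Gstm1 (adjusted p = 0.130 from limma), which also missed the threshold without control replicate 2 (-0.14) and without shNsd2 replicate 2 (-0.16). Against MCTP, shNsd2 cells had 12 of these genes lower, 2 higher and 6 not passing (median -0.24, against 0.0072 over all genes, of which 20.6% were higher and 22.6% lower). The count higher was 1 without MCTP replicate 1 or any 1 of the shNsd2 libraries.

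Of 9 regulators of Nrf2 and its partners, 1 rose with MCTP, 3 fell and 5 did not pass (median -0.12), where 18.0% of all genes rose and 17.2% fell. The falls numbered 0 without control replicate 2 or 3 (4 with all libraries at an unadjusted p under 0.05 from limma) and 1 without control replicate 1 or MCTP replicate 1 or 3, and 2 regulators rose without MCTP replicate 2. Nfe2l1, the related factor Nrf1, fell by 0.28 (adjusted p = 0.0141 from limma), a call that was lost without control replicate 2 (-0.27) and without control replicate 3 (-0.24). Sqstm1, which codes for p62, a protein that can sequester Keap1, gave 0.33 with MCTP (adjusted p = 0.0599 from limma), and passed without MCTP replicate 2 at 0.43 (adjusted p = 0.00285 from limma). The MCTP value of Sqstm1 also passed with all 9 libraries in one fit (adjusted p = 0.0251 from limma) and with quantile normalization (adjusted p = 0.0321 from limma). After the GC correction it passed at 0.25 (adjusted p = 0.0393 from limma). With shNsd2, 3 regulators rose, 3 fell and 3 did not pass (median -0.062), where 23.1% of all genes rose and 24.8% fell. Sqstm1 rose by 0.29 (adjusted p = 0.0108 from limma) and Nfe2l1 fell by 0.21 (adjusted p = 0.00613 from limma). Directly, 1 was higher in shNsd2 than in MCTP cells, 0 were lower by limma (1 at an unadjusted p under 0.05) and 8 did not pass (median -0.095), where 20.6% of all genes were higher and 22.6% lower. Without MCTP replicate 2, 2 were higher and 4 lower, as were 3858 and 3898 of 12191 genes.

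Among 18 tested genes for glutathione, thioredoxin and antioxidant enzymes, 8 rose with MCTP, 0 fell by limma (1 at an unadjusted p under 0.05) and 10 did not pass (median 0.21), where 18.0% of all genes rose and 17.2% fell. The count that rose was 12 without MCTP replicate 2 (3630 of 12203 over all genes), 4 without MCTP replicate 1 and 5 without any 1 of the control libraries. Gpx1, a glutathione peroxidase, rose by 0.79 (adjusted p = 0.00130 from limma) and Gss, the second enzyme of glutathione synthesis, by 0.69 (adjusted p = 0.00193 from limma). Prdx2 (0.43) and Glrx (0.35) rose as well, and Gpx4, which reduces lipid hydroperoxides, gave 0.33 (adjusted p = 0.0520 from limma), and 0.44 without MCTP replicate 2 (adjusted p = 6.36e-04 from limma). The MCTP value of Gpx4 also passed with all 9 libraries in one fit (adjusted p = 0.0255 from limma) and with quantile normalization (adjusted p = 0.0179 from limma). It passed too with libraries centred on their medians (adjusted p = 0.0442 from limma) and after the GC correction (0.23, adjusted p = 0.0287 from limma). With shNsd2, 6 rose, 5 fell (3 without shNsd2 replicate 1) and 7 did not pass (median 0.056), where 23.1% of all genes rose and 24.8% fell. Prdx2 (0.37) and Gss (0.19) rose, the latter call being lost with all 9 libraries in one fit (adjusted p = 0.110 from limma), Glrx (-0.20) fell, and Gpx1 gave 0.12 (adjusted p = 0.0544 from limma), and 0.15 without shNsd2 replicate 3 (adjusted p = 0.0196 from limma). Directly, 1 was higher in shNsd2 cells, 5 were lower and 12 did not pass (median -0.096), where 20.6% of all genes were higher and 22.6% lower, and without MCTP replicate 2 10 were lower (3898 of 12191 over all genes). The count higher was 2 without MCTP replicate 3 and 0 without MCTP replicate 1 or shNsd2 replicate 1 or 3.

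Glutathione transferases attach glutathione to electrophilic compounds. Of 13 tested, 7 rose with MCTP, 0 fell by limma (also 0 at an unadjusted p under 0.05) and 6 did not pass (median 0.32), where 18.0% of all genes rose and 17.2% fell, and without MCTP replicate 2 11 rose and 0 fell, against 3630 and 3742 of 12203 genes. Gstm2 was at 8.40, 8.45 and 8.47 in control, 9.33, 9.17 and 9.40 in MCTP and 8.07, 8.09 and 8.06 in shNsd2 libraries. The 3 groups were fully separate, with shNsd2 libraries lowest. Its difference was 0.86 with MCTP (standard error 0.071, adjusted p = 2.07e-04 from limma), -0.37 with shNsd2 (standard error 0.041, adjusted p = 1.48e-04 from limma) and -1.23 directly (standard error 0.067, adjusted p = 3.39e-05 from limma).

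Mgst1 (0.32 with MCTP and -0.25 with shNsd2) and Gstm4 (0.36 and -0.15) had the same opposite signs, each past the threshold. Gsta1 passed as higher in both (0.79 and 0.56), Gsto1 rose with MCTP (0.45) and gave -0.071 with shNsd2 (-0.11 and past the threshold without control replicate 1), and Gstp1 rose with MCTP (0.41, adjusted p = 0.0253 from limma). That last call was lost without control replicate 1 (0.36), 2 (0.45) or 3 (0.42) and without MCTP replicate 1 (0.42). With shNsd2, 2 transferases rose, 6 fell and 5 did not pass (median -0.085), where 23.1% of all genes rose and 24.8% fell, and directly 0 were higher in shNsd2 than in MCTP cells by limma (also 0 at an unadjusted p under 0.05), 8 were lower (5 without shNsd2 replicate 3) and 5 did not pass (median -0.28), where 20.6% of all genes were higher and 22.6% lower.

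**Figure D2:**
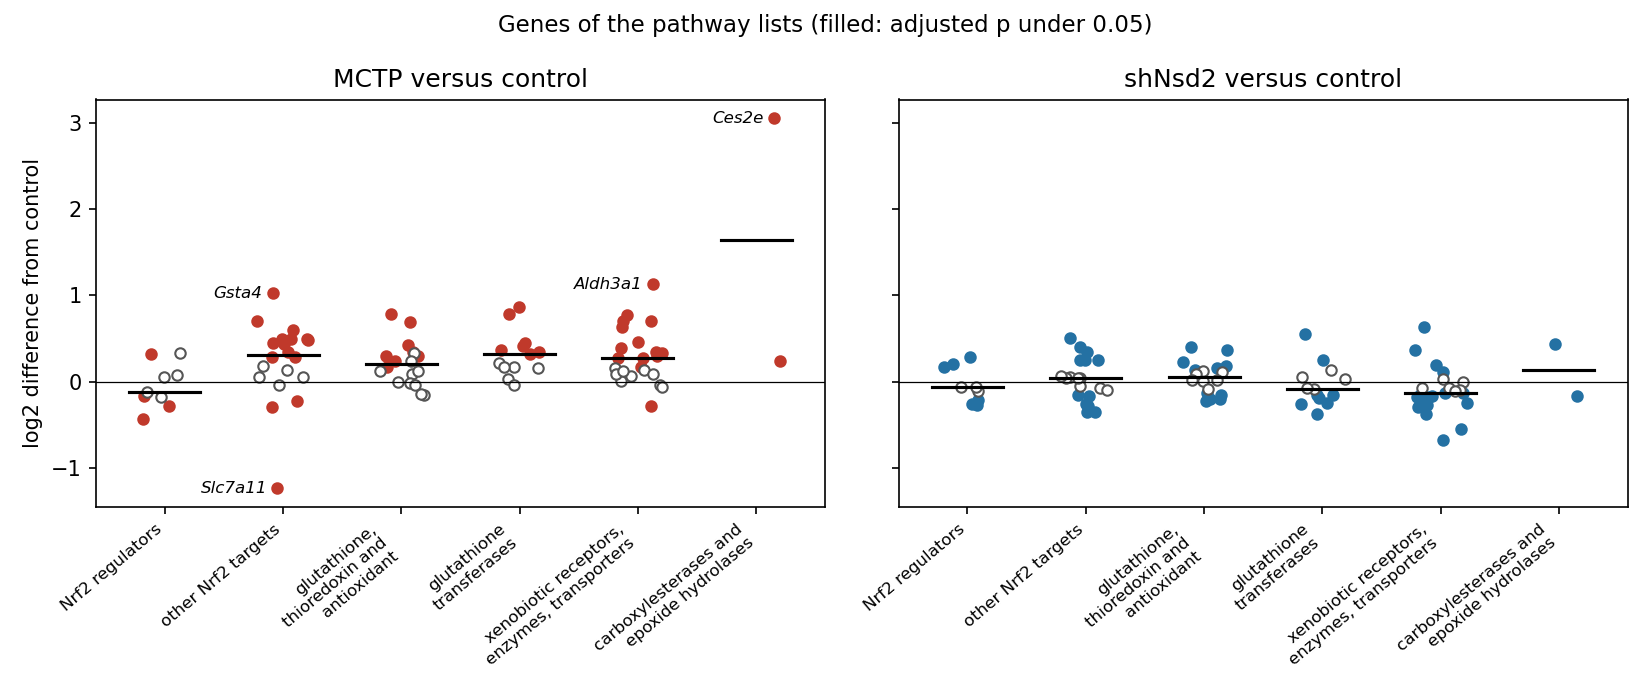
Log2 difference from control (vertical axes) of every tested gene of 6 pathway lists with MCTP (left, red) and shNsd2 (right, blue), each over 3 against 3 libraries. Filled points have an adjusted p under 0.05 from limma, open points do not, horizontal lines mark list medians (0.32 for the other Nrf2 targets with MCTP and 0.043 with shNsd2), and genes beyond a difference of 1 are named, from Ces2e (3.05) to Slc7a11 (-1.23).

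The list with xenobiotic receptors, other metabolic enzymes and transporters had 23 tested genes, of which 13 rose with MCTP, 1 fell and 9 did not pass (median 0.27), where 18.0% of all genes rose and 17.2% fell (median -0.0062). With shNsd2, 4 rose (2 with all 9 libraries in one fit), 13 fell and 6 did not pass (median -0.13), where 23.1% of all genes rose and 24.8% fell (median 0.0020). The aldehyde dehydrogenase Aldh3a1 was at 10.93, 10.95 and 10.94 in control, 12.04, 11.86 and 12.32 in MCTP and 10.95, 10.92 and 10.75 in shNsd2 libraries. Its MCTP libraries lay above all others, and its shNsd2 libraries reached the control level. The differences were 1.13 with MCTP (standard error 0.10, adjusted p = 3.24e-04 from limma) and -0.070 with shNsd2 (95% interval -0.19 to 0.049), which did not pass.

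Some members of this list moved in opposite directions in the treated groups. Ugt1a6a, a glucuronosyltransferase, rose by 0.70 with MCTP (adjusted p = 8.71e-05 from limma) and fell by 0.20 with shNsd2 (adjusted p = 0.00205 from limma). Abcg2, an efflux transporter, rose by 0.28 with MCTP (adjusted p = 0.00954 from limma, and 0.0504 without control replicate 2) and fell by 0.55 with shNsd2 (adjusted p = 5.57e-06 from limma). Aldh3b1 (0.46 and -0.29) and Ugt1a7c (0.39 and -0.26) had the same signs. Directly, Ugt1a6a was lower in shNsd2 than in MCTP cells by a difference of -0.91 (adjusted p = 2.07e-05 from limma) and Abcg2 by -0.82 (adjusted p = 6.40e-05 from limma).

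Other members did not have that pattern. Abcc4, which exports organic anions, was at 10.89, 10.91 and 10.92 in control, 11.52, 11.52 and 11.56 in MCTP and 11.52, 11.54 and 11.56 in shNsd2 libraries. Both treated groups were above control and overlapped each other. It rose by 0.63 with MCTP (standard error 0.045, adjusted p = 1.07e-04 from limma) and by 0.64 with shNsd2 (standard error 0.032, adjusted p = 2.42e-06 from limma), and gave 0.0077 directly (95% interval -0.089 to 0.10, adjusted p = 0.893 from limma). Abcc3 fell by 0.67 with shNsd2 (adjusted p = 2.62e-05 from limma) and gave 0.098 with MCTP. The carbonyl reductase Cbr3 rose in both (0.77 and 0.38), and the drug exporter Abcb1b rose with MCTP (0.71) and gave 0.032 with shNsd2 (0.082 after the GC correction, adjusted p = 0.0490 from limma). The electron donors Por (0.011 and -0.14) and Cyb5r3 (0.12 and -0.11) had the highest control values of the list. Cyb5r3 passed neither test, but passed with MCTP without MCTP replicate 2 (0.18, adjusted p = 0.0161 from limma), and with shNsd2 without control replicate 1 (-0.13, adjusted p = 0.0163 from limma), after the GC correction (adjusted p = 0.00135 from limma) and with quantile normalization (adjusted p = 0.0242 from limma). Por passed with shNsd2 (adjusted p = 0.0352 from limma), a call lost with all 9 libraries in one fit (adjusted p = 0.141 from limma), with libraries centred on their medians (adjusted p = 0.0768 from limma), and without control replicate 2 or 3 or shNsd2 replicate 2 or 3. Directly, 0 of the 23 were higher in shNsd2 than in MCTP cells by limma (also 0 at an unadjusted p under 0.05, but 1 past the threshold without MCTP replicate 2 and 1 after the GC correction), 16 were lower and 7 did not pass (median -0.34), where 20.6% of all genes were higher and 22.6% lower.

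Of 21 further carboxylesterases and epoxide hydrolases 3 were analysed, and 2 of them, Ces2e and Ephx2, passed the filter. Ephx2, the soluble epoxide hydrolase, rose by 0.24 with MCTP (adjusted p = 0.0216 from limma) and fell by 0.16 with shNsd2 (adjusted p = 0.0222 from limma). The MCTP call was lost without control replicate 1 (0.20) or 3 (0.25) and without MCTP replicate 1 (0.22) or 3 (0.21). The shNsd2 call was lost without control replicate 2 (-0.13) or 3 (-0.16), without shNsd2 replicate 2 (-0.13) and with all 9 libraries in one fit (adjusted p = 0.0513 from limma). Its direct difference was -0.41 (adjusted p = 0.00128 from limma).

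Promoter windows from 250 bases before to 50 after each start (RefSeq, GRCm38.p6) were searched for 7 of the 9 analysed genes, all except Gclc and Gsr. The core of the antioxidant response element was searched on both strands in the single form TGACNNNGC, where N is any base. Other forms of the core were not searched and are not marked. It was present in a window of Nfe2l2, Gclm, Srxn1 and Txnrd1 (1 of its 3 windows) and in 12.4% of 32851 windows in all. The windows of Keap1, Ephx1, Ces2g and Ces2e did not hold these letters. The Srxn1 match lies after the start, at bases 279 to 287 of its window. Those of Gclm, Txnrd1 and Nfe2l2 lie before it. A match describes the letters and shows no binding, and lack of one says nothing of other forms or of elements elsewhere. The 4 windows with a match are shown because these genes changed with MCTP, with the match in capitals, each 5′ to 3′ on the gene's strand: Srxn1 (chr2:152105274-152105573, + strand), Gclm (chr3:122245307-122245606, + strand), Txnrd1 (chr10:82858956-82859255, + strand) and Nfe2l2 (chr2:75704614-75704913, - strand).
Srxn1: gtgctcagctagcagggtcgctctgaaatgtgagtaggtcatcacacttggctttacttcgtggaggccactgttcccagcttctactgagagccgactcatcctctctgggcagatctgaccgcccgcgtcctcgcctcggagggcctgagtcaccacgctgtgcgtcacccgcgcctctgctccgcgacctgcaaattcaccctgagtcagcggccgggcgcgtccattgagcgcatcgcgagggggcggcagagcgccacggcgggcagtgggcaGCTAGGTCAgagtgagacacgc
Gclm: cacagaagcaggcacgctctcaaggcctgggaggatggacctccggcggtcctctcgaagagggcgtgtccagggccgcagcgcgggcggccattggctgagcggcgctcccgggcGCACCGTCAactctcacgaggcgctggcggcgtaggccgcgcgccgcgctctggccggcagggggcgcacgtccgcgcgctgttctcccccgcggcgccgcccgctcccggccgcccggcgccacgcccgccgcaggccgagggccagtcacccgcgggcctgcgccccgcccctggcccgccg
Txnrd1: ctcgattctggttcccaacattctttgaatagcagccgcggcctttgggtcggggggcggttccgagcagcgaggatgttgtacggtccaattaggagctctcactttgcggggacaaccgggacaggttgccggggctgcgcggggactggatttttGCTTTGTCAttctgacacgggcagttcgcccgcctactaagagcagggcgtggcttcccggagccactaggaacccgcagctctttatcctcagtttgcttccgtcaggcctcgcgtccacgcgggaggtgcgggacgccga
Nfe2l2: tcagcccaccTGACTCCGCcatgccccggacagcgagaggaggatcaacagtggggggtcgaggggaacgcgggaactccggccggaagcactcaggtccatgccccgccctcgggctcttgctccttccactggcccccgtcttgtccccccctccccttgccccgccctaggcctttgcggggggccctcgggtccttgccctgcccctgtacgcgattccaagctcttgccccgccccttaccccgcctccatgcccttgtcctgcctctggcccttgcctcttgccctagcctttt

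The windows of the nearby genes Ces2g (chr8:104961468-104961767, + strand) and Ces2e (chr8:104926010-104926309, + strand) are shown because both were among the genes with the largest differences with MCTP. They hold no capitals, since no match was found.
Ces2g: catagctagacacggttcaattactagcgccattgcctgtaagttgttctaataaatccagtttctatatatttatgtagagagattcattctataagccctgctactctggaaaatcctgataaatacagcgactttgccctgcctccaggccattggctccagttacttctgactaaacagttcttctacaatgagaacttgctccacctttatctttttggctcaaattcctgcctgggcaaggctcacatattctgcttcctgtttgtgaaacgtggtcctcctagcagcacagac
Ces2e: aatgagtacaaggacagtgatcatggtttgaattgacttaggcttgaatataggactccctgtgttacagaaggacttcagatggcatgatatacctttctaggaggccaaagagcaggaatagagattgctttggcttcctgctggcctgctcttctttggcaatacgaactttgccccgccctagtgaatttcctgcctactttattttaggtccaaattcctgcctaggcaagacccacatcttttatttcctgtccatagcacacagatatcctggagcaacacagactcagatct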

How the data were processed

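RNA-seq libraries made from polyadenylated RNA of control, MCTP and shNsd2 NPK cells (3 each) were grouped by their titles. The authors deposited 1 log2 value per gene and library. Library medians ran from 9.61 to 9.67, and the main fit used the values without further scaling between libraries. The header names no transform, and the submitters' processing notes name bcl2fastq 1.8.4, TopHat, Cufflinks, DESeq, DESeq2 and the build mm9 without their roles. Columns that match no sample (3) were not used. Depth is unknown, so precision was judged from the spread between libraries.

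Genes were kept where 3 or more of the 6 libraries compared exceeded 3.78, the median of the lowest 10% of values. Groups were compared with limma 3.58.1 in R 4.3.3 (moderated test, eBayes with a trend, two-sided), p-values adjusted by Benjamini-Hochberg across every tested gene, threshold 0.05. The procedure was tested on simulated data. Members and lists were chosen with earlier results of these data known. Named were the members, Nsd2, list genes past the threshold with an absolute difference over 0.5 in any comparison, the 2 genes of each list with the highest control values, and the 3 genes most like Ephx1 and Ces2g. Ces2f, genes next in rank to Ephx1 and Ces2g, and marker genes that changed were named after their values were seen. Coordinates and GC content come from GENCODE M21 (GRCm38), in which 97.4% of 12842 identifiers were found, and which is not the build of the processing notes. Alternatives were to correct for GC content (lowess, span 0.3), leave out each library in turn, centre libraries on medians, apply quantile normalization, omit the trend or the filter, add the replicate number as a block, and fit all 9 libraries together. Plots used matplotlib 3.10.9 (Python 3.11.15).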

Additional observations from a re-analysis of the deposited data

How the results depend on the processing

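Each comparison was refitted under 13 alternatives. Nsd2 stayed lower in shNsd2 cells throughout (-0.86 to -0.77), and so did Nfe2l2 (-0.25 to -0.19), while Gclm (0.23 to 0.32) and Txnrd1 (0.21 to 0.24) stayed higher. With MCTP the calls of Gclc (0.51 to 0.57), Gclm (0.27 to 0.48), Srxn1 (0.51 to 0.63), Txnrd1 (0.24 to 0.29) and Nfe2l2 (-0.27 to -0.20) held under all 13. Of all genes, 4305 passed with MCTP, and 2029 to 7372 with a library left out, the highest without MCTP replicate 2. The cause was not tested. For shNsd2 against MCTP 5276 passed, and 3361 to 7756 with a library left out, again the highest without MCTP replicate 2. Of the 7 genes named for their function, 3 passed with shNsd2, 6 with the GC correction and 3 to 5 with a library left out (5 without control replicate 1). The cause was not tested.

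The values that changed sign were small and none passed the test. With quantile normalization Keap1 gave -0.000763 for shNsd2 against MCTP, and Gsr gave 0.0024 with MCTP, or 0.017 with libraries centred on their medians. With a library left out, shNsd2 against MCTP gave -0.00042 to 0.041 for Nfe2l2 and -0.051 to 0.071 for Keap1, and MCTP against control gave -0.12 to 0.0011 for Keap1 and -0.036 to 0.020 for Gsr. List genes were refitted under the same alternatives after the data had been seen. The counts that rose with MCTP ranged from 11 to 13 for other Nrf2 targets, 6 to 11 for transferases, 9 to 16 for the xenobiotic list and 4 to 13 for antioxidant enzymes (13 with the GC correction). With shNsd2, 2 to 5 of the xenobiotic list rose and 9 to 14 fell. With the GC correction Gpx4 gave -0.053 with shNsd2, and Por gave -0.091 with MCTP. With a library left out, Gpx4 gave -0.033 to 0.061 and Abcb1b -0.00242 to 0.0529 with shNsd2, and with MCTP Por gave -0.032 to 0.086 and the marker Twist1 -0.031 to 0.00435, or 0.0208 with libraries centred on their medians. The cause was not tested.

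Replicate numbers are shared by the groups, and whether they pair the libraries is not known. Same-numbered libraries deviated from their group means with mean correlations of -0.19 (MCTP and control), -0.25 (shNsd2 and control) and -0.36 (shNsd2 and MCTP). Libraries with other numbers gave 0.14, 0.16 and 0.23. Single same-numbered values scattered widely, from -0.60 to 0.61 for MCTP and control. Deviations within a group cancel out, so both sets of means depend on each other and cannot decide on pairing. A fit with replicate numbers as the block passed 3399, 4515 and 3794 genes in these comparisons, as well as 5, 3 and 2 of the 7, and gave -0.83 for Nsd2 in shNsd2 cells. Small differences, such as those of Keap1 and Gsr, are at the limit of what 3 libraries a group resolve, and the depth of the libraries is unknown.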
